A study of Rattus norvegicus with 15 samples.

Results

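A set of 41 genes was nearly silent in distal Achilles tendon and reached high but very unequal levels in proximal tendon of the same rats. The set was chosen from a table of 32883 rat genes by 3 conditions on CPM (the count of a gene divided by the library total, times 1000000). A gene had to lie under 1 CPM in all 5 distal libraries, to average at least 30 CPM over the 5 proximal libraries, and to fall under 5 CPM in the lowest proximal library. These values are therefore what chose the genes, and the proximal and distal levels below are descriptions without a test. The table gives Ensembl identifiers only, and 0 of the 41 genes could be paired with a symbol. Whether the set is made of skeletal muscle genes, and of slow or fast fibre type, was therefore not judged, and marker genes of muscle, tendon or any other tissue were not looked up. Tendon identity of the libraries was not checked for the same reason. The genes are called the proximal-variable genes here, and members other than the leading pair are given by their rank in mean proximal CPM.

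Libraries came from male Sprague-Dawley rats, 8 weeks of age, healthy and untreated, in 3 groups of 5 libraries: distal, middle and proximal Achilles tendon. Each of the 5 rats gave 1 library per region, and the left and right segments of a rat were put together for RNA isolation. The tendon was cut free just below the junction with muscle and above its insertion on bone, so no group was taken from muscle on purpose. All animals share strain, sex and age, and no group differs in genotype or treatment.

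The Achilles tendon joins the calf muscles to the heel bone. At its proximal end, tendon collagen anchors into the folded ends of muscle fibres at the myotendinous junction, and at its distal end the tissue passes through fibrocartilage into bone. Skeletal muscle fibres make contractile proteins, calcium-handling proteins and enzymes of energy supply in very large amounts, with separate slow and fast forms of many of them, whereas tendon cells mainly make collagens and the proteoglycans that organise them. This is general background and assigns no member to a tissue.

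The proximal-variable genes spanned a wide range of levels. Their mean proximal level ran from 31.2 to 2825 CPM with a median of 92.8 CPM. It was at least 1000 CPM for 2 genes, between 100 and 1000 CPM for 18 and under 100 CPM for 21. CPM is not divided by transcript length, so this is an order of read counts and not of transcript numbers. In distal tendon a member had 0 to 88 counts over all 5 libraries together, with a median of 21 counts, and its highest distal library reached at most 0.934 CPM. For the 35 members with more than 3 distal counts, the mean proximal level was 77.6 to 13197 times the mean distal level, with a median of 984. The members ranked 28 and 40 had 0 counts in every distal library. Against a limit of 3 counts over all distal libraries together, they were at least 2802-fold and at least 1411-fold higher in proximal tendon, a limit that covers counting error only. The 4 members with 1 to 3 distal counts are given no fold.

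The third condition of the rule removed no gene. Among all 5989 genes that averaged at least 30 CPM in proximal tendon, 41 stayed under 1 CPM in every distal library, and all 41 of these fell below 5 CPM in at least 1 proximal library. At the edges of the rule, the highest distal level was 0.934 and 0.927 CPM for the members closest to the ceiling, and 1.32 and 1.33 CPM for the nearest genes beyond it. Mean proximal levels were 31.2 and 32.4 CPM just inside and 27.9 and 27.1 CPM just outside. The lowest proximal level was 4.01 and 1.48 CPM for the members nearest to that limit, with 0 genes beyond it.

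The gene with the highest mean proximal level was ENSRNOG00000017786. Its proximal level was 104 CPM in rat 1, 0.592 CPM in rat 2, 5222 CPM in rat 3, 3157 CPM in rat 4 and 5641 CPM in rat 5, a mean of 2825 ± 2700 CPM (SD, n = 5). Its distal level was 0.765, 0.862, 0.718, 0.564 and 0.428 CPM in rats 1 to 5, a mean of 0.667 ± 0.172 CPM. The proximal library of rat 2 thus lay within the distal range, and the other proximal libraries lay above all distal ones. In middle tendon this gene stood at 2.62, 1.12, 2.81 and 2.21 CPM in rats 1 to 4 and at 731 CPM in rat 5. All 5 middle libraries exceeded the highest distal library, rat 5 by far the most.

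ENSRNOG00000016983 ranked next. Its proximal level was 105 CPM in rat 1, 0.394 CPM in rat 2, 4495 CPM in rat 3, 2006 CPM in rat 4 and 2847 CPM in rat 5, a mean of 1891 ± 1902 CPM (SD, n = 5). In distal tendon it stood at 0.510, 0, 0.302, 0.282 and 0.0389 CPM in rats 1 to 5, where the zero in rat 2 allows up to 0.0994 CPM (3 counts of the library, counting error only). Middle libraries held 1.33, 0.894, 0.995 and 0.824 CPM in rats 1 to 4 and 427 CPM in rat 5. Both genes thus shared the low proximal library of rat 2 and the high middle library of rat 5. The highest proximal library was that of rat 5 for ENSRNOG00000017786 and that of rat 3 for ENSRNOG00000016983. With TMM scaling, described below, ENSRNOG00000017786 was also higher in rat 3 (5265 CPM) than in rat 5 (4604 CPM).

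**Figure D1:**
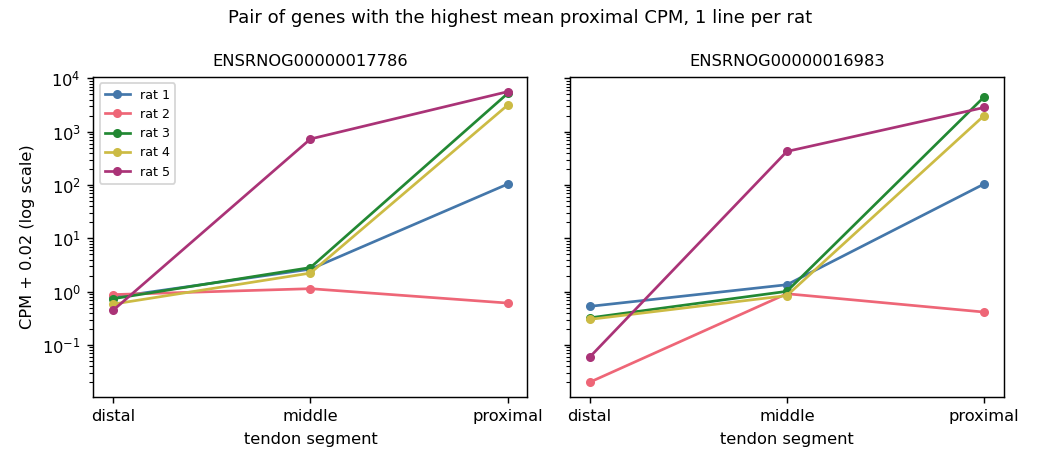
CPM plus 0.02 on a log axis in distal, middle and proximal segments for ENSRNOG00000017786 (left) and ENSRNOG00000016983 (right), 1 line per rat. In rat 2 both genes stay under 2 CPM in every segment, and in rat 5 the middle segment already holds 731 and 427 CPM.

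A partial order of rats was shared by most of the set, with rat 2 lowest, rat 1 next and rats 3, 4 and 5 above them. In proximal tendon the median member stood at 195.0 CPM in rat 5, 162 CPM in rat 3, 94.7 CPM in rat 4, 5.81 CPM in rat 1 and 0.197 CPM in rat 2. The distal medians were 0.127, 0.132, 0.227, 0.161 and 0.156 CPM in rats 1 to 5, so that rat 2 was the only rat whose proximal median lay inside the distal range. Rat 2 had the lowest proximal level for 40 of the 41 members, rat 4 the lowest of rats 3, 4 and 5 for 41 of 41, and rat 5 the highest level for 30 members and rat 3 for the other 11. With TMM scaling rat 3 was highest for 33 members and rat 5 for 8, so the order of these rats depends on the scaling. For 40 of 41 members rat 1 lay above rat 2 and below all of rats 3, 4 and 5, an order found in 6.23% of the 15037 genes with enough counts to be tested. The rule selects for a low library and for a high mean, so these comparisons with all tested genes are descriptions. The exception was the member ranked 32, with 4.01 CPM in rat 1 and 4.34 CPM in rat 2, which also had the highest level of any member in a middle library of rats 1 to 4 (3.90 CPM in rat 4).

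**Figure D2:**
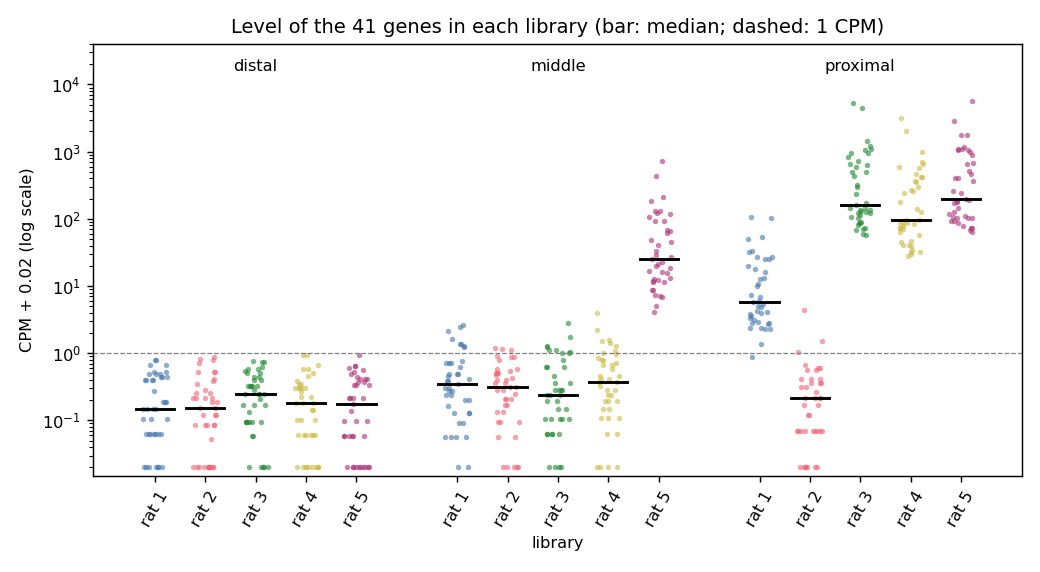
Level of each of the 41 genes (points, CPM plus 0.02, log axis) in each of the 15 libraries, grouped by region, with the median as a bar and a dashed line at 1 CPM. The middle library of rat 5 (median 24.9 CPM) and 4 of the 5 proximal libraries rise above the rest, and the proximal library of rat 2 (median 0.197 CPM) sits with the distal libraries.

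Together the 41 genes took 2.59% of all counts in the proximal library of rat 5 (95% exact binomial interval 2.58 to 2.59%), 2.45% in rat 3 (2.45 to 2.46%), 1.35% in rat 4 (1.35 to 1.36%), 0.0673% in rat 1 (0.0662 to 0.0684%) and 0.00145% in rat 2 (0.00129 to 0.00163%). These intervals cover counting error only. The summed level differed 1778-fold between the proximal libraries of rats 5 and 2. In distal libraries the share was 0.000848 to 0.00110%. The coefficient of variation over the 5 proximal libraries (SD divided by mean) was 91.3 to 119% for the members, against a median of 18.6% for the 5948 other genes averaging at least 30 CPM. A spread of that size is partly imposed by the rule. Of those other genes, 41 (0.689%) had a coefficient of at least 91.3%.

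At the proximal end, library totals were lower in rats 3, 4 and 5 than in rats 1 and 2. Among rats 3, 4 and 5, library totals and median member CPM ranked alike, lowest in rat 4 and highest in rat 5. Rat 1 likewise exceeded rat 2 in both. Proximal libraries held 22205927 counts in rat 1 and 20277727 in rat 2, and 16792934, 15413963 and 17643201 in rats 3, 4 and 5. The middle library of rat 5 had 18866801 counts, against 23048945 to 27817554 in the other middle libraries. The part of depth in the differences between rats was not tested. Scaling by TMM (trimmed mean of M values, an estimate of library size that is less swayed by a few abundant genes) gave median member levels of 6.996, 0.193, 163, 81.2 and 159 CPM in the proximal libraries of rats 1 to 5 and 20.3 CPM in the middle library of rat 5, with rat 3 slightly above rat 5 and the other proximal libraries in the same order. In tissue pieces such as these, fewer cells of a type and less RNA per cell cannot be told apart.

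Middle libraries were not used to choose the genes. In 4 rats the middle segment stayed near the distal level, with medians of 0.323 CPM in rat 1, 0.298 in rat 2, 0.216 in rat 3 and 0.347 in rat 4. In rat 5 the median was 24.9 CPM and every member lay between 4.08 and 731 CPM. That library was the highest of the 5 middle libraries for 41 of 41 members, where it was the highest for 59.8% of all tested genes. It was at least 8-fold above the next middle library for 38 of 41 members, against 0.505% of all tested genes (76 genes, these 38 included). The smallest such ratio was 4.76, for the member ranked 32. For all 41 members this library lay above the proximal library of rat 1 and below that of rat 4. Without rat 5 only 23 members passed the filter on low counts used for the tests below. Members were also near the distal level in the other middle libraries, which favours a high ratio. The comparisons with all tested genes are therefore descriptions.

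The other middle segments differed from the distal segments by a small amount. Summed over the set, the middle level was 2.36 times the distal level in rat 1, 1.75 times in rat 2, 1.71 times in rat 3 and 2.77 times in rat 4. The number of members above the distal library of the same rat was 35, 31, 25 and 32 of 41 in rats 1 to 4, and the number below it 4, 7, 14 and 7. The distal levels had been chosen to be low, which by itself favours higher middle values, and all tested genes were not counted in this way. In rat 2 the set was no higher in proximal than in middle tendon. Its summed level there was 14.6 CPM in the proximal and 14.8 CPM in the middle library, with 10 members higher and 29 lower in the proximal library. In the other rats all 41 members were higher in the proximal than in the middle library, and the summed level was 29.0-fold higher in rat 1, 1301-fold in rat 3, 552-fold in rat 4 and 8.50-fold in rat 5.

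Regions were then compared over all genes, with rat as a block (edgeR quasi-likelihood test, Benjamini-Hochberg adjusted p under 0.05). In proximal against distal tendon 22.2% of all 15037 tested genes were higher, and 41 of 41 members were. The rule used this contrast, so nothing is read from that count. All 41 members passed the filter on low counts in this fit. In middle against distal tendon 13.2% of all genes were higher, and 7 of 41 members (edgeR). The rule had set the distal side of this contrast low, and without rat 5 only 23 members passed the filter on low counts, so the members' calls and folds are given as a description. The members' median log2 fold change was 4.25, with a range of 0.81 to 8.26, against 0.01 for all tested genes. The fold changes rested on rat 5. Without its middle library 0 members passed (edgeR, against 10.1% of all genes), 1 had an unadjusted p under 0.05, and the median log2 fold change was 1.63. Without its distal library 0 passed as well (10.8% of all genes), and without the middle library of rat 3 there were 18 (9.48% of all genes). Dropping any of the remaining libraries singly left 1 to 11 members, with 7.11 to 13.4% of all genes higher. DESeq2 called 10 of the members and 15.5% of all genes higher.

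In proximal against middle tendon 0.273% of all genes were higher, and 4 of 41 members (edgeR). The rule required a high mean in the proximal libraries, so direction and size were in part fixed by it, and nothing is read from this count either. The members' median log2 fold change was 5.59, ranging from 2.996 to 6.86. The count varied with single libraries. Without the proximal library of rat 2, 36 members passed (edgeR), and without the middle library of rat 5, 21 did. The corresponding shares of all genes were 2.60% and 0.527%. Without the proximal library of rat 5 there were 11 (0.297% of all genes), and without any of 10 other libraries left out in turn 0 (0 to 0.243% of all genes), while leaving out the distal library of rat 1 or rat 5 gave 2 or 4 (0.348% or 0.525% of all genes). Without the rat block 0 members and 0 of all genes passed (edgeR, all 41 members at an unadjusted p under 0.05). DESeq2, with rat in its design, called 41 members and 4.72% of all genes higher.

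The proportions of the members to each other were compared between the libraries where they were high. Relative to the proximal library of rat 5, the median log2 ratio was -0.11 in the proximal library of rat 3, -0.99 in that of rat 4, -3.14 in the middle library of rat 5 and -5.16 in the proximal library of rat 1. These correspond to 92.6%, 50.4%, 11.3% and 2.81% of the level in rat 5. The SD of the log2 ratio over the 41 members was 0.38 in rat 3, 0.34 in rat 4, 0.37 in the middle library of rat 5 and 0.51 in rat 1. For scale, counting error alone would give SDs of 0.0379, 0.0478, 0.0828 and 0.145, and separate libraries also differ by more than that. Among the 5948 other genes averaging at least 30 CPM in proximal tendon, the SD of the same ratios was 0.40, 0.29, 0.40 and 0.69, around medians of -0.29, -0.06, 0.02 and -0.57.

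The rank order of members followed that of the proximal library of rat 5 with Spearman's rho of 0.966 in rat 3, 0.962 in rat 4, 0.967 in the middle library of rat 5 and 0.929 in rat 1. In the proximal library of rat 2 rho was 0.245, with 7 members at 0 counts and a median of 4 counts per member. Middle libraries of rats 1 to 4 gave 0.398 to 0.599 and distal libraries 0.0654 to 0.485. These are correlations over 41 genes of a library pair, which share transcript length and base composition, and the low ones come from libraries with few counts. The leading pair of genes took 31.0 to 39.6% of the member counts in the proximal libraries of rats 1, 3, 4 and 5 and in the middle library of rat 5, 12.4 to 20.2% in the middle libraries of rats 1 to 4, 5.17 to 12.9% in distal libraries and 6.78% in the proximal library of rat 2.

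**Figure D3:**
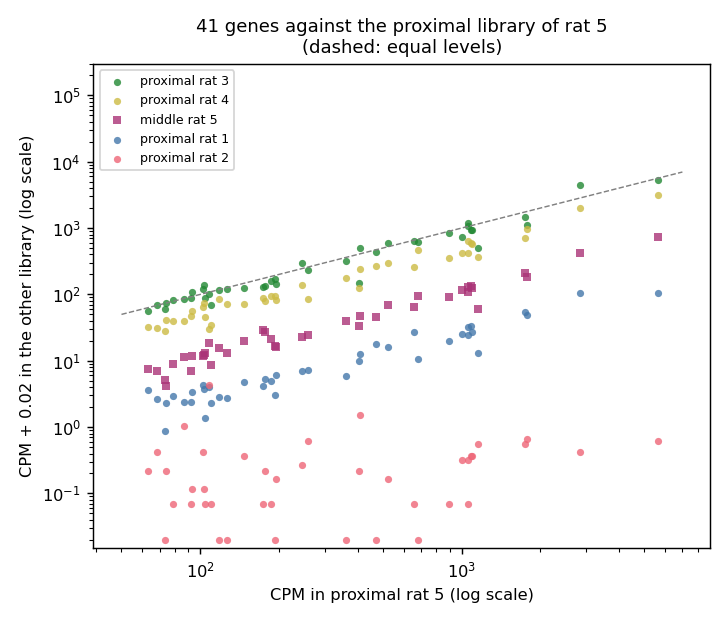
Level of each of the 41 genes in 5 libraries (vertical axis, CPM plus 0.02) against its level in the proximal library of rat 5 (horizontal axis, CPM), both on log scales, with equal levels as a dashed line. Points of proximal rats 3, 4 and 1 and of the middle library of rat 5 run parallel to that line at medians of 92.6%, 50.4%, 2.81% and 11.3%, whereas those of proximal rat 2 form no such band.

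A few members departed from the common proportion, and they were singled out after their values were seen. Between the proximal libraries of rats 5 and 3 the ratio lay within 2-fold of the median for 39 of 41 members. The 2 beyond it were the member ranked 18, which reached 406 CPM in rat 5 against 146 CPM and 126 CPM in the proximal libraries of rats 3 and 4, and the member ranked 11, at 1158 CPM against 500 CPM and 364 CPM. These were 2.77 and 2.32 times higher in rat 5 than in rat 3. In the other direction ENSRNOG00000016983 had the lowest ratio, at 0.633 times its level in rat 3. In the middle library of rat 5 the member ranked 11 stood at 5.23% and the member ranked 38 at 5.50% of their proximal level in that rat, and the member ranked 32 at 17.3%. The set as a whole had a median of 11.3% there.

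The low level in rat 2 was set against other genes that were higher in proximal tendon. For each rat, genes outside the set were taken that were at least 4-fold higher in proximal than distal tendon in the fit of the other 4 rats (edgeR, adjusted p under 0.05), and their difference was read in the rat left out. In rat 2 this gave 301 genes with a median difference of 1.16 on the log2(CPM + 0.1) scale, positive for 249 of them (82.7%). The 41 members had a median difference of 0 in rat 2, positive for 20 of them. In rat 1 the medians were 1.56 over 323 other genes and 4.83 over the members. In rats 3, 4 and 5 they were 2.16, 2.95 and 2.37 over 304, 244 and 252 other genes and 9.79, 9.28 and 10.09 over the members. The members' own values in each rat had entered the rule, so their side of this comparison carries no test. The share of other genes with a positive difference was 93.5, 97.0, 100 and 97.6% in rats 1, 3, 4 and 5. Rat 2 thus had the lowest median and the lowest share among the other genes as well. Most other proximal-high genes were still higher in the proximal segment of rat 2, while 20 members were above and 17 below their distal level there. The difference between both groups of genes was not tested.

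**Figure D4:**
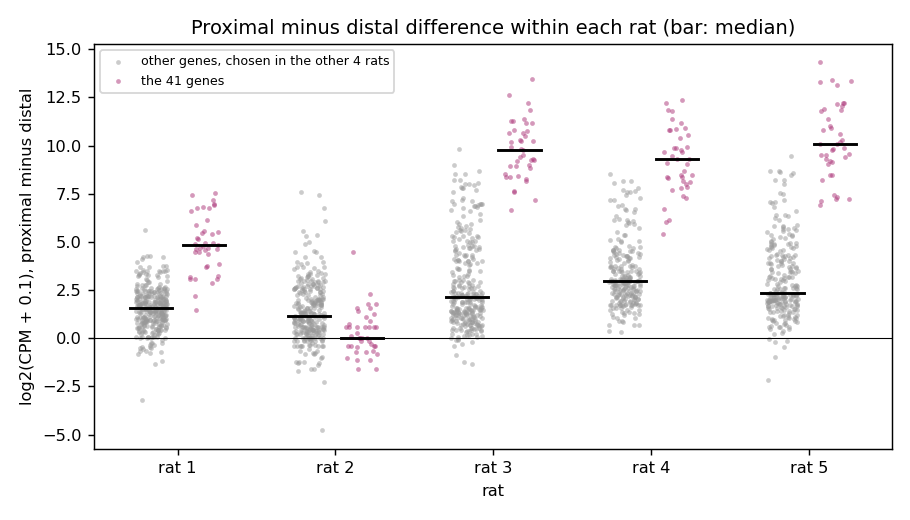
Proximal minus distal difference on the log2(CPM + 0.1) scale within each rat, for other genes found proximal-high in the remaining 4 rats (grey) and for the 41 genes (purple), with medians as bars. In rat 2 the other genes lie at a median of 1.16 and the 41 genes at 0, whereas in the other rats the 41 genes have the higher median.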

How the data were processed

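Values are read counts per gene as the authors deposited them, without normalization. The submitters' processing notes name the rn6 build, HISAT2 2.2.1 and featureCounts 2.0.1, beside fastp 0.19.10 and SAMtools 1.9. The annotation release and the strand setting were not given in the sources used here, so reads of overlapping genes or near-identical copies may be split in unknown ways. Of 32883 identifiers, 0 could be paired with a symbol in the gene table used here (assembly GRCr8), so marker and pathway lists were not applied, and at most 2 identifiers are printed, those with the highest mean proximal CPM. Library totals were 15413963 to 30178952 counts. CPM were computed on column sums. Counts of 15037 genes kept by filterByExpr were scaled by TMM and fitted in R 4.3.3 with edgeR 4.0.16 (robust quasi-likelihood, terms for region and rat, 15 libraries), with DESeq2 1.42.0 as an alternative. The fit was tested on simulated data. Equal numbers mark the same animal, per the labels. Their deviations from region means correlated above 0.1 in 13 of 15 pairs of libraries from the same rat. Pairs from different rats were not set beside them, so this count is no test of the pairing. The members, lists and rules were chosen with earlier results of these data known. Separate rats are the replicates.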

Additional observations from a re-analysis of the deposited data

Results flagged for a closer look

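Each region's 5 libraries were screened for 1 library far from the rest, on the log2(CPM + 0.1) scale, for the median member level and for both named genes. Of 9 such groups 3 held one, and all 3 were the middle library of rat 5. The rule used the distal and proximal values, so the general rate of about 5% of groups does not apply here. The 3 measures are not independent. The median member level in that library was 4.64, against -1.66 to -1.16 in the other middle libraries. ENSRNOG00000017786 stood at 9.51 there, against 0.28 to 1.54, and ENSRNOG00000016983 at 8.74, against -0.11 to 0.52. Taken gene by gene, 36 of the 41 members had the middle library of rat 5 that far above the others, against 2.63% of all 15037 tested genes. Without rat 5 only 23 members passed the filter on low counts, so this comparison is a description.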

How the results depend on the processing

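The set held 41 genes as chosen. It held 39 with TMM-scaled CPM (all 39 among the 41), 52 with a distal ceiling of 2 CPM, 56 with a mean proximal floor of 15 CPM and 41 with a lowest-library limit of 10 CPM. With a rat left out it held 22 to 45 genes. The low value was without rat 2, where 19 of the 22 were among the 41, because rat 1 then had to fall under 5 CPM. Replicate block: without it, members called fell from 7 to 3 in middle against distal and 4 to 0 in proximal against middle tendon. The shares of all genes higher fell from 13.2% to 7.71% and from 0.273% to 0%. Genes called, counted here in both directions, fell from 3731 to 2303 and from 62 to 0. With no filter on low counts the members called were 1 and 1, where 6.83% and 0.181% of all genes were higher. DESeq2 called 41 members, all higher, and 1170 genes (710 higher and 460 lower) in proximal against middle tendon. Leaving out a rat gave 0 to 9 members in middle against distal tendon, with 6.04 to 11% of all genes higher. In proximal against middle tendon it gave 0 to 1, with 0 to 0.212% of all genes higher. Genes called were 1849 to 3047 and 0 to 35. Leaving out a library, an alternative added after seeing the data, gave 0 to 18 and 0 to 36 members. The shares of all genes higher were then 7.11 to 13.4% and 0 to 2.60%, and genes called 2266 to 3780 and 0 to 536. Without rat 5 only 23 members passed the filter on low counts. Genes called in proximal against distal tendon stayed within 1.5 times of 6300 in every setting run. Fold changes of list genes outside the set were planned but not run, since no symbols were matched. The cause of these changes was not tested beyond the fewer samples or genes of a setting.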

Other observations

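Genes close to the rule are described here. They meet conditions that themselves favour 1 low library beside high ones. Another 20 genes met both proximal conditions but reached 1.32 to 228 CPM in their highest distal library. Their median mean level was 90.3 CPM in proximal and 1.44 CPM in distal tendon. Rat 1 lay above rat 2 and below rats 3, 4 and 5 in 19 of these 20 (6.23% of all tested genes), and the middle library of rat 5 was the highest middle library in 18 and at least 8-fold above the next in 11 (0.505% of all tested genes). A further 15 genes met the distal and lowest-library conditions with a mean proximal level of 15 to 30 CPM. That order of rats held in 13 of these 15, and the middle library of rat 5 was at least 8-fold above the next in 12.

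Outside the set, 38 tested genes had a middle library of rat 5 at least 8-fold above the other middle libraries. Their median mean proximal level was 20.5 CPM, and 19 of them stayed under 1 CPM in every distal library. Rat 2 had the lowest proximal level in 35 of the 38, where 1504 of the 15037 tested genes had their lowest proximal level in rat 2. These genes partly overlap with those just described.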
